A study of Mus musculus with 26 samples.

Results

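The probes described here measure the mRNA of ion channels and their subunits in 5 exocrine glands of the mouse head. They are all probes whose gene symbol in the array's annotation belongs to the following channel families. These are the potassium channels (Kcn), the HCN channels (Hcn) and the voltage-gated sodium (Scn) and calcium (Cacn) channels. The CLC chloride channels and exchangers (Clcn) and the TRP channels of the A, C, M and V families also belong, with Trpm5 left out. This rule found 90 genes, measured by 93 of the array's 10500 probes, among 8841 genes with a named probe. One of them, Trpc4ap, carries the symbol of a protein that binds TRPC4 and is not itself a channel. The rule itself matched symbols and used no measured value, but the members were chosen with earlier results of these data known.

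On 26 arrays, RNA of male and of female BALB/c mice, an inbred strain, was measured from 3 salivary glands (submandibular, sublingual and parotid) and from the lacrimal and meibomian glands of the eye. The labels give no treatment, no mutant allele and no age. Each array held RNA from a pool of 10 glands of 5 animals, and the pools of a group are separate sets of animals that carry the letters A, B and C. The submandibular, lacrimal and meibomian glands had 3 pools per sex, and the sublingual and parotid glands had 2. In such pooled glands, fewer cells of a type and less RNA per cell cannot be told apart.

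Exocrine secretion runs on ion channels. Acinar cells drive chloride and water into the lumen when calcium rises in the cell, and potassium channels such as Kcnma1 and Kcnn4 hold the membrane potential negative so that chloride keeps leaving. Duct cells then take sodium back and add potassium and bicarbonate. The meibomian gland works in another way, since its cells fill with lipid and burst whole into the duct. Voltage-gated sodium and calcium channels are best known from nerve and muscle, which reach into every gland, and the TRP family holds cation channels that respond to stretch, temperature, pain-producing chemicals or emptied calcium stores.

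Values are scaled intensities, a linear brightness whose median lay between 0.928 and 0.955 on each array. Testing was limited to probes that were at or above the 30th array percentile (0.281 to 0.561) throughout 1 or more of the 10 sex-by-gland groups. This kept 61 channel probes for 59 genes, or 65.6%, against 78.0% of all probes on the array. The other 32 were not kept, and 11 of those were under that limit on all 26 arrays that gave a value. A group whose arrays were all under the limit for a probe is called dim, and a fold against dim groups is given as "at least". Of the 61 probes, 31 were dim in no group, 30 were dim in 1 or more groups, and 3 (Kcna3, Kcnq1 and the second Kcnk4 probe) were above this limit in 1 gland only. A probe that was kept through 1 gland alone had to differ between glands, so its call adds nothing to that. The counts of calls below include these 3 probes. Passing required every array of a group to reach the limit. Other probes with dim groups may therefore also have passed only through the gland where they were high. Hcn3, Hcn2 and Cacna1s, dim in 5, 4 and 6 groups, may be among them. Through which groups each probe passed was not examined, so calls of such probes carry the same limit. Since probes differ in how brightly they bind, a difference in level between 2 probes is not read as a difference in mRNA.

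The arrays also divided in ways that the groups do not explain. The missing spots sorted them into 4 sets. Pairs of arrays within a set shared at least 24.3% of their missing probes and pairs from different sets at most 2.38%. Set 1 held 10 arrays, set 2 held 8, and sets 3 and 4 held 4 each. The meibomian pools A lay in set 3 with the lacrimal pools B, and the meibomian pools B and C made up set 4. All salivary arrays lay in sets 1 and 2, so no meibomian array shared a set with them. For the meibomian gland, gland and set therefore cannot be told apart, except within set 3 against the lacrimal pools B. A principal component analysis was run on the values after group means were removed, so it cannot show differences between groups. Its first component, with 30.5% of that remaining variance, separated 10 arrays from 16 and held both sexes of each letter together. This division split set 1, while set 3 lay wholly among the 10 and sets 2 and 4 among the 16. The 10 arrays were the submandibular and lacrimal pools B and the sublingual, parotid and meibomian pools A. Marker genes separated some of the labelled glands. Their lists were chosen with earlier results of these data known, so the sums describe the arrays and are no independent check of the labels. The summed level of 4 meibomian markers was 222 to 356 on meibomian arrays and at most 55.0 elsewhere. That of 4 lacrimal markers was 900 to 1391 on lacrimal arrays and at most 314 elsewhere. That of 3 submandibular markers was 397 to 544 in male submandibular pools, against 13.1 to 30.6 in female ones, and reached 157 in male sublingual pools. The parotid and sublingual glands had 1 marker probe each, and that of the parotid gland, the amylase gene Amy1, read 150 to 492 there and up to 318 in submandibular pools, so it did not set the parotid gland apart. The sum of 21 skeletal muscle marker probes was 83.2 to 375 in parotid and 290 to 521 in meibomian pools, against 6.58 to 39.4 in the other 3 glands.

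Most channel probes differed between glands, in about the share that all probes did. In limma's moderated F test over the 5 glands, 50 of the 61 (82.0%) had an adjusted p under 0.05, against 80.6% of all 8190 probes tested. In the comparison of each gland with the mean of the other 4, a call required an adjusted p under 0.05 and a log2 difference of at least 1. In the meibomian gland 6 probes were higher and 23 lower, or 47.5% called, against 37.9% of all probes. The submandibular gland had 14 higher and 3 lower, or 27.9%, against 12.3% of all probes. The parotid gland had 9 higher and 5 lower, or 23.0%, against 17.1% of all probes (8.95% higher and 8.13% lower). The lacrimal gland had 8 higher and 4 lower, or 19.7%, against 20.2% (11.6% higher and 8.58% lower). The sublingual gland had 5 higher and 2 lower, or 11.5%, against 11.2% (5.9% higher and 5.26% lower).

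Of all probes, 17.0% were called higher and 20.9% lower in the meibomian gland, and 5.68% higher and 6.61% lower in the submandibular gland. The median log2 difference of the channel probes was -0.72 in the meibomian gland, where that of all probes was -0.09, and 0.23 in the submandibular gland, where that of all probes was -0.02. In the sublingual, parotid and lacrimal glands their medians were -0.03, 0.03 and 0.19, beside -0.08, -0.13 and 0.12 for all probes. With the array set as a covariate the meibomian calls numbered 20, of which 15 were among the 29. The meibomian values below are therefore given with that fit where it ended a call. That fit ties the meibomian gland to the others only through the lacrimal pools B of set 3.

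**Figure D1:**
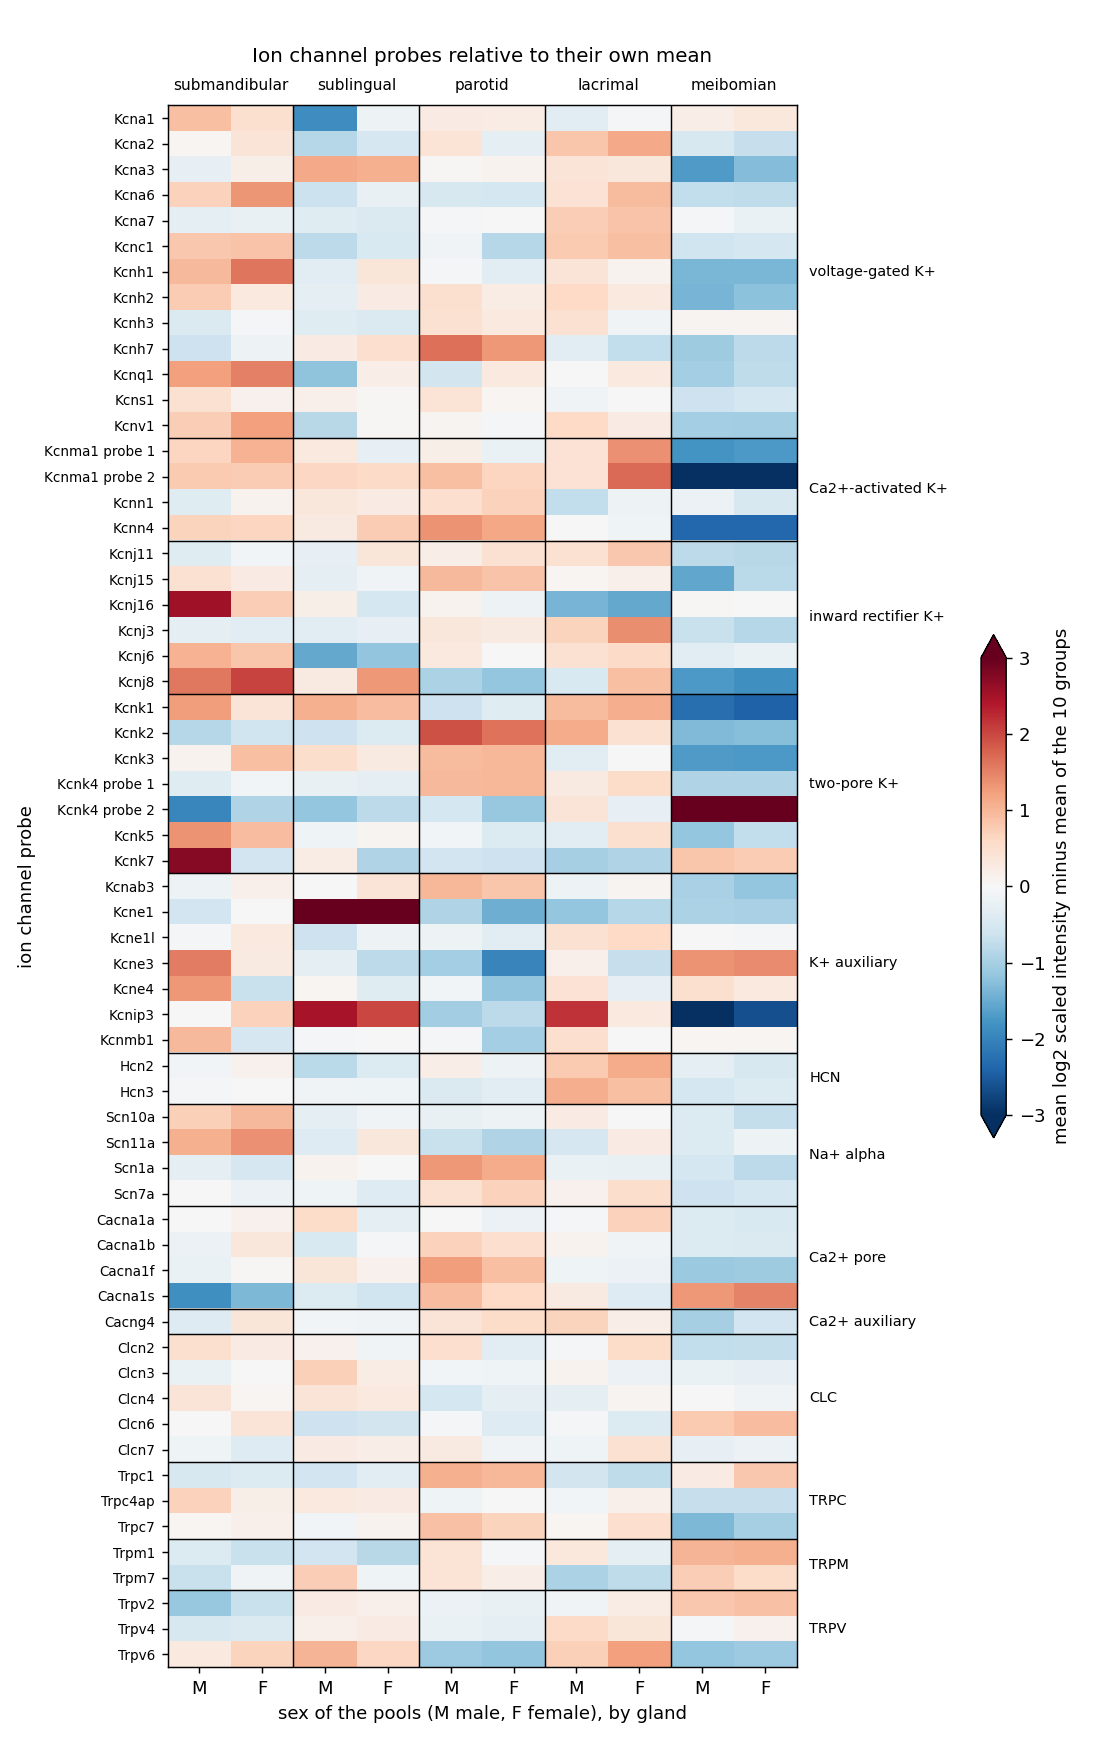
Mean log2 scaled intensity of the 61 channel probes that were kept, in rows grouped by channel family, for male (M) and female (F) pools of each gland in columns, each relative to the mean of the probe over the 10 groups (red higher, blue lower, colours saturate at the ends of the scale). The meibomian columns are blue for most potassium channel probes, and Kcne1 stands out in the sublingual gland, Kcnk4 probe 2 in the meibomian gland and Kcnk7 in male submandibular pools.

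Two-pore-domain potassium channels give cells a steady potassium leak, and all 7 of their probes were kept. Kcnk1 (TWIK-1) was the member with the plainest gland pattern. Its scaled intensity was 0.897 to 1.28 on the 6 meibomian arrays, against 6.16 to 16.3 on the submandibular, 8.01 to 14.8 on the sublingual, 3.70 to 4.75 on the parotid and 6.36 to 17.0 on the lacrimal arrays. No meibomian array reached the level of any other array, and the parotid arrays lay between the meibomian and the rest. Kcnk1 was 7.62-fold lower in the meibomian gland than in the mean of the others (log2 difference -2.93 ± 0.17 SE, n = 6 pools, adjusted p = 7.17e-12). It was higher in the lacrimal (1.27 ± 0.17) and the sublingual gland (1.24 ± 0.20), against means that include the low meibomian level. The sublingual difference was under the limit of 1 on the 16 arrays alone (0.84) and in set 2 alone (0.11). The lacrimal one was under it on the 10 arrays alone (0.96) and in set 2 alone (0.59). The order of the submandibular, sublingual and lacrimal levels cannot be read, since their arrays overlap.

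Kcnk2 (TREK-1), a leak channel opened by stretch, was the two-pore probe that led the parotid gland. It read 64.7 and 182 in male and 75.2 and 107 in female parotid pools and 6.5 to 69.3 on the other arrays that gave a value, with no value on the 4 arrays of set 3. The parotid level overlapped only the lacrimal one, and the log2 difference was 2.21 ± 0.48 (4.62-fold, adjusted p = 0.00173). With missing spots at the floor it was 3.88 and no longer called (adjusted p = 0.172). Kcnk3 (TASK-1) was also higher in the parotid gland (1.21 ± 0.23) and lower in the meibomian gland (-2.13 ± 0.20). It was dim in the meibomian gland, at 0.0897 to 0.120, and in male lacrimal pools, so no fold is given. Kcnk5 (TASK-2), an acid-sensitive leak channel of epithelia, was at least 2.31-fold higher in the submandibular gland (1.42 ± 0.27, adjusted p = 0.000442).

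Kcnk4 (TRAAK), a mechanically gated leak channel known from nerve, had 2 probes that disagreed. The second read 1.21 to 2.85 on the meibomian arrays and 0.00034 to 0.428 on all others, so no array overlapped. It was at least 5.63-fold higher in the meibomian gland (3.94 ± 0.36, adjusted p = 7.28e-09). As it was kept through this gland alone, the call adds nothing to that. The first read 0.135 to 0.323 on the meibomian and 0.617 to 1.12 on the parotid arrays, and was lower in the meibomian gland (-1.14 ± 0.26), though with the array set as a covariate this call ended (adjusted p = 0.342). Which of the 2 probes reads Kcnk4 mRNA was not tested.

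Calcium-activated potassium channels are the classic partners of acinar chloride secretion. Kcnma1, the big-conductance BK channel, had 2 probes, both lower in the meibomian gland. The first read 0.495 to 1.19 on meibomian arrays, against 1.86 to 10.9 on all others (-2.20 ± 0.20, adjusted p = 9.55e-09). The second read 0.0133 to 0.133 on meibomian arrays, against 0.251 to 2.53 on all others, or at least 2.43-fold lower (-4.03 ± 0.50, adjusted p = 5.83e-07). Neither probe's meibomian arrays overlapped the rest.

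Kcnn4, the intermediate-conductance channel of secretory and blood cells, read 0.601 to 4.52 on meibomian arrays and 2.18 to 41.9 on the others. It was 7.73-fold lower in the meibomian gland (-2.95 ± 0.59, adjusted p = 0.000171), and the only values outside it under 5 were the 2 lacrimal pools B, at 2.18 and 2.67. Those are among the 10 arrays on which this probe ran low throughout. Kcnn1, a small-conductance channel, passed the F test (adjusted p = 0.0339) with no gland called.

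The auxiliary subunits held the largest difference of any channel probe. Kcne1 (minK), which slows the opening of Kcnq1 in heart and inner ear, read 7.78 and 10.7 in male and 7.80 and 4.23 in female sublingual pools. On all 22 other arrays it lay between 0.225 and 1.29, and the highest of those was a female submandibular pool. It was at least 18-fold higher in the sublingual gland (4.29 ± 0.23, adjusted p = 1.07e-10). This call held under each of the alternatives and left-out arrays that tested it. The probe for its partner Kcnq1 did not share this pattern. It read 0.362 to 0.705 in submandibular pools, against 0.311 and 0.0156 in male and 0.275 and 0.186 in female sublingual pools. It was at least 1.47-fold higher in the submandibular gland (1.72 ± 0.37, adjusted p = 0.00113). As it was kept through that gland alone, this call adds nothing to that.

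Kcnip3 (also calsenilin or DREAM), a calcium-binding protein that attaches to Kv4 channels and also works in the nucleus, was highest in sublingual and male lacrimal pools. It read 1.99 to 4.81 in sublingual pools, 2.07 to 5.20 in male lacrimal pools, 0.685 to 1.38 in female lacrimal pools, 0.691 to 1.67 in submandibular pools, 0.303 to 0.450 in parotid pools and 0.0539 to 0.209 in meibomian pools. The meibomian arrays lay below all others (-3.60 ± 0.25, at least 4.23-fold lower, adjusted p = 1.27e-10). It was at least 5.33-fold higher in the sublingual gland (2.79 ± 0.29, adjusted p = 6.05e-07). Kcne3, which keeps Kcnq1 open in colon epithelium, was at least 2.14-fold higher in the meibomian gland (1.74 ± 0.35) and lower in the parotid gland (-1.88 ± 0.41).

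**Figure D2:**
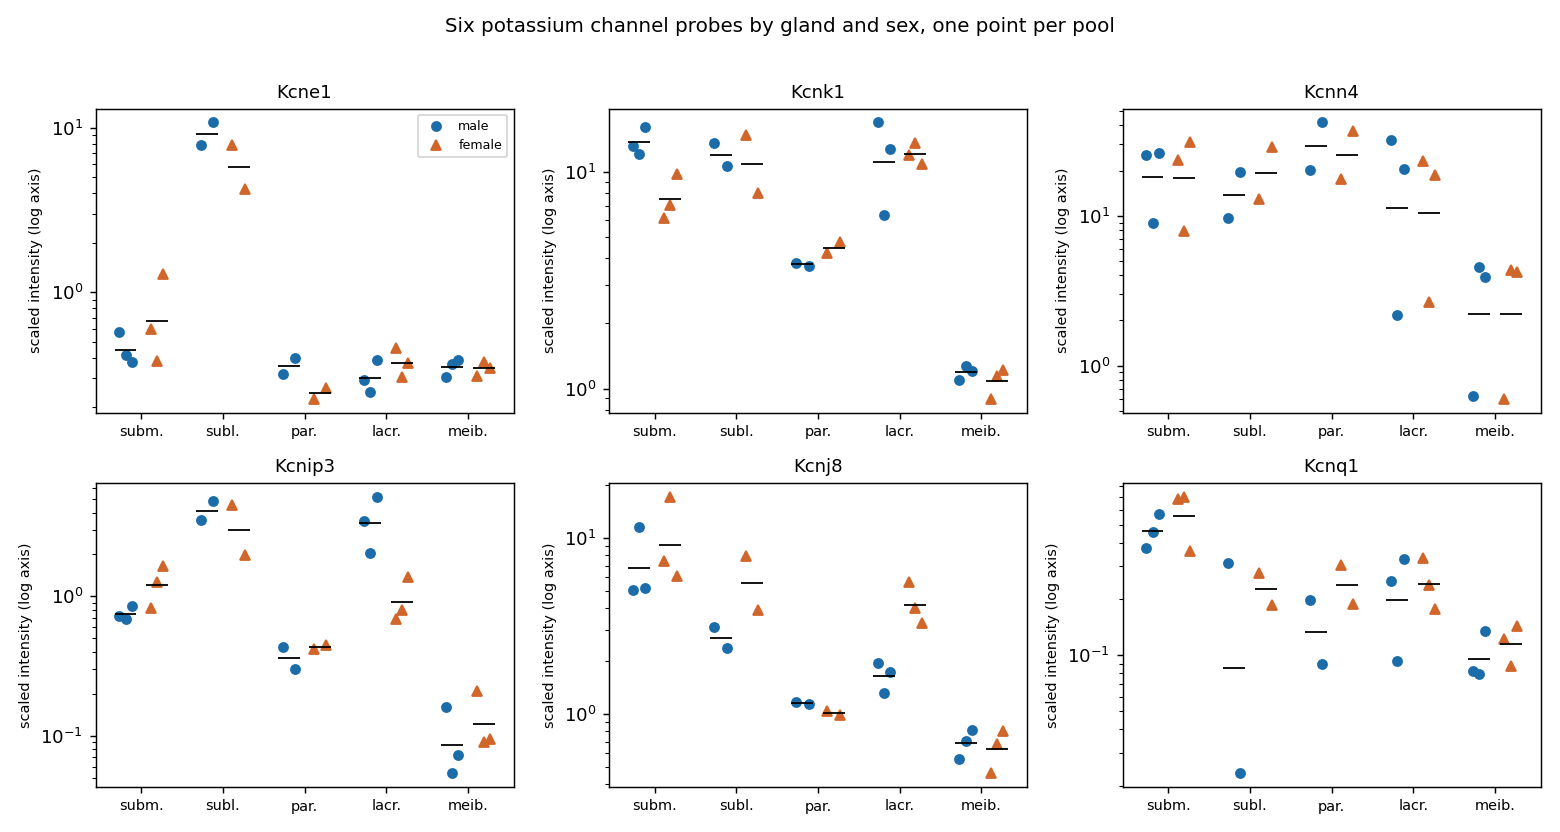
Scaled intensity (log axis) of 6 potassium channel probes in each gland, 1 point per pool, circles for male and triangles for female pools, with the geometric mean of each group as a bar. Kcne1 is high in all 4 sublingual pools, Kcnk1 and Kcnip3 are lowest in the meibomian pools, and the low Kcnn4 points within each gland are the pools of the 10 arrays that stood apart.

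Inward rectifiers let potassium in more easily than out, and some couple to metabolism or to G proteins. Kcnj8 (Kir6.1), the pore of the ATP-sensitive channel of vascular smooth muscle and pericytes, read 5.08 to 17.2 in submandibular, 2.38 to 7.95 in sublingual, 1.32 to 5.62 in lacrimal, 0.989 to 1.17 in parotid and 0.464 to 0.820 in meibomian pools. The parotid and meibomian arrays lay below all others. It was 4.79-fold higher in the submandibular gland (2.26 ± 0.22, adjusted p = 9.97e-08) and 4.65-fold lower in the meibomian gland (-2.22 ± 0.22, adjusted p = 2.26e-08). Summed smooth muscle and myoepithelial markers (5 probes) ran 39.6 to 231 in submandibular, 49.4 to 187 in sublingual and 65.3 to 77.8 in meibomian pools, against 15.1 to 37.1 in parotid and lacrimal pools. Their part in its pattern was not tested.

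Kcnj6 (GIRK2), a G-protein-coupled rectifier known from neurons, was the channel probe lowest in the sublingual gland. It read 7.75 to 12.7 in sublingual pools and 15.1 to 70.0 in all others, without overlap (-1.70 ± 0.29, 3.24-fold lower, adjusted p = 0.000198). Kcnj3 (GIRK1), its usual partner, was higher in the lacrimal gland (1.30 ± 0.22, adjusted p = 5.21e-05), where it read 1.62 to 10.3, though at 0.86 under the limit of 1 on the 16 arrays alone. Kcnj11, the pore of the ATP-sensitive channel of beta cells and muscle, read 0.165 to 0.197 in meibomian pools and 0.213 to 0.569 elsewhere (-1.01 ± 0.17). It was dim there and in male submandibular and sublingual pools, so no fold is given, and with the array set as a covariate the difference was -0.95. Kcnj15, a rectifier of kidney and acinar cells, was at least 1.41-fold higher in the parotid gland (1.14 ± 0.33, adjusted p = 0.00927), a call that ended with the array set as a covariate (adjusted p = 0.061). Kcnj16 is described with the sexes.

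Among 13 voltage-gated potassium subunits, 6 were lower in the meibomian gland and 4 higher in the submandibular gland. Of all probes, 20.9% and 5.68% were called in these directions. With the array set as a covariate none of the 6 meibomian calls (Kcna3, Kcnh1, Kcnh2, Kcnh7, Kcnq1 and Kcnv1) was kept. Kcnh7 (an ERG-type channel) led the parotid gland, with 5.81 to 8.85 on its arrays against 0.964 to 5.51 on all others and no overlap (1.85 ± 0.21, 3.59-fold, adjusted p = 5.14e-07). Kcnh1 (EAG1) read 5.79 to 12.3 in submandibular pools and 0.879 to 7.32 elsewhere (1.62 ± 0.27, adjusted p = 0.000117). Kcna3, best known as a T cell channel, was at least 1.16-fold higher in the sublingual gland (1.38 ± 0.33, adjusted p = 0.00383). As it was kept through this gland alone, the call adds nothing to that. That call ended on the 16 arrays alone (1.17, adjusted p = 0.145) and with the array set as a covariate (0.99, under the limit of 1), and set 2 alone gave 0.38. There 7 of 10 immune marker probes were also called higher, and their sum was 56.1 to 101 against 21.6 to 75.6 in the other glands. Their part in the Kcna3 difference was not tested.

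Kcnh3, a neuronal channel, had a barely called F test (adjusted p = 0.0474), with 6.77 to 8.33 in parotid pools against 2.99 to 9.37 elsewhere. Kcna6 and Kcnv1 were the other voltage-gated calls in the submandibular gland, at 1.25 ± 0.17 and 1.23 ± 0.20, and the Kcnv1 difference was 0.98 with the array set as a covariate. Kcna1, Kcna2 and Kcnc1, channels of nerve fibres and fast-firing neurons, did not pass the F test (adjusted p = 0.245, 0.408 and 0.594).

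Both HCN probes, for pacemaker channels that open on hyperpolarization, were higher in the lacrimal gland. Hcn3 read 0.466 to 1.43 there and 0.196 to 0.470 elsewhere, at least 2.06-fold (1.25 ± 0.20, adjusted p = 3.31e-05). Hcn2 read 0.343 to 0.695 there and 0.0940 to 0.461 elsewhere, at least 1.86-fold (1.19 ± 0.24). Without the male lacrimal pool A the Hcn3 difference fell to 0.99, under the limit of 1. The Hcn3 difference was also under that limit with quantile normalization (0.96), with a pseudocount (0.59) and on the 10 arrays alone (0.93).

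The sodium channels of pain-sensing neurons, Scn10a and Scn11a, were higher in the submandibular gland. Scn11a (Nav1.9) read 69.2, 63.0 and 45.5 in male and 74.5, 94.3 and 51.3 in female submandibular pools, against 12.2 to 40.2 in all other pools. No submandibular array overlapped another gland (1.52 ± 0.18, 2.87-fold, adjusted p = 1.14e-06). Scn10a (Nav1.8) read 5.31 to 9.21 there and 1.64 to 6.02 elsewhere (1.06 ± 0.24, adjusted p = 0.00178), and with the array set as a covariate this difference was 0.79, under the limit of 1. Scn1a, a channel of central and peripheral neurons, was higher in the parotid gland (1.52 ± 0.27, adjusted p = 0.000162), though at 0.99 on the 16 arrays alone, and Scn7a passed the F test (adjusted p = 0.00307) with no gland called.

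Markers of nerve and Schwann cells were measured by 16 probes, of which 11 were kept. Their sum was 164 to 243 in submandibular, 110 to 174 in sublingual, 37.2 to 48.4 in parotid, 26.7 to 37.3 in meibomian and 16.4 to 21.0 in lacrimal pools, so it was highest in the gland where Scn10a and Scn11a were highest. Of the 11 kept, 2 were called higher in the submandibular gland and none lower. Much of the submandibular sum came from 1 probe, that of Th (tyrosine hydroxylase, which makes catecholamines). Its medians were 173 in submandibular, 61.6 in sublingual, 7.71 in parotid, 1.25 in lacrimal and 0.457 in meibomian pools. The order of the glands without Th was not tested, so the sum is not read as nerve content. Of the 16 probes, 5 were dim in male and 4 in female submandibular pools, and the neurofilament probes Nefh and Nefm and the peripherin probe Prph were dim in every gland. The part of nerve in the sodium channel differences was not tested. Of 9 nerve channel probes kept, 2 were higher in the submandibular, 1 in the parotid and 1 in the lacrimal gland. The shares of all probes called higher in these glands were 5.68%, 8.95% and 11.6%. 

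Most calcium channel probes were not kept. Of 7 pore subunits 4 were kept, and of 8 auxiliary subunits only Cacng4. Cacna1s, the voltage sensor of skeletal muscle contraction, read 0.469 to 1.19 in meibomian and 0.203 to 0.685 in parotid pools, against 0.0168 to 0.386 in the others. It was at least 1.73-fold higher in the meibomian gland (1.74 ± 0.35, adjusted p = 0.00022), which with the parotid gland had the high skeletal muscle marker sums, and lower in the submandibular gland (-1.99 ± 0.35). The part of muscle in this difference was not tested. Cacna1f, a retinal L-type channel, was higher in the parotid gland (6.88 to 11.4 against 1.59 to 7.5, 1.36 ± 0.21, adjusted p = 3.55e-05) and lower in the meibomian gland (-1.36 ± 0.18). Cacna1b (N-type, of nerve endings) had no call and an F test adjusted p of 0.0667. The probe of the muscle subunit Cacng1 was not kept and read 0.128 to 0.461 over all arrays.

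Of 5 CLC probes kept, 3 did not pass the F test. Clcn3, an exchanger of endosomes, read 1.89 to 4.95 in submandibular, 2.89 to 5.63 in sublingual, 2.59 to 3.39 in parotid, 1.82 to 4.69 in lacrimal and 1.93 to 5 in meibomian pools, and did not pass the F test (adjusted p = 0.413). Clcn4 and Clcn7 did not pass it either (0.391 and 0.319). Clcn2, a plasma membrane channel of acinar cells opened by hyperpolarization, passed it (0.000817), with 0.145 to 0.263 in meibomian pools and 0.212 to 0.518 elsewhere. Clcn6, a late endosome exchanger, was the only CLC call, 2.09-fold higher in the meibomian gland (1.07 ± 0.14, adjusted p = 1.81e-06), and with the array set as a covariate that difference was 0.85.

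Among TRP channels, Trpv6, a calcium uptake channel of gut and exocrine epithelium, split the glands. It read 0.773 to 1.25 in sublingual, 0.908 to 2.26 in lacrimal and 0.687 to 1.10 in submandibular pools, against 0.198 to 0.352 in parotid and 0.236 to 0.354 in meibomian pools. The 2 sets of glands did not overlap. It was at least 2.42-fold lower in the parotid gland (-1.43 ± 0.19, adjusted p = 4.79e-06) and lower in the meibomian gland (-1.40 ± 0.16). Trpv6 was at least 2.26-fold higher in the lacrimal gland (1.21 ± 0.16, adjusted p = 3.74e-06). The lacrimal difference was under the limit of 1 on the 16 arrays alone (0.993) and in sets 1 and 2 alone (0.57 and 0.86).

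Trpc1, a channel tied to store-operated calcium entry in salivary acinar cells, read 2.99 to 5.42 in parotid and 1.43 to 4.57 in meibomian pools, against 0.952 to 1.82 in the rest. It was 2.44-fold higher in the parotid gland (1.29 ± 0.25, adjusted p = 0.000447). One male parotid pool gave no value, and taking missing spots as floor values turned the difference to -0.59. Trpm1, of retinal bipolar cells and melanocytes, read 0.644 to 0.808 in meibomian pools and 0.133 to 0.620 elsewhere (at least 2.10-fold, 1.31 ± 0.20, adjusted p = 7.37e-06). Trpv2 was at least 1.90-fold higher in the meibomian gland (1.06 ± 0.18), though not with the array set as a covariate (adjusted p = 0.148). Trpm7, a channel fused to a kinase that carries magnesium, was lower in the lacrimal gland (-1.07 ± 0.40, adjusted p = 0.0362), where pools B gave no value. That call was not firm. It ended with the pool letter as a random block (adjusted p = 0.0706), with array weights (0.0885), with missing spots at the floor (0.123) and without any 1 of 7 arrays: the male and female pools B of the sublingual and parotid glands, both lacrimal pools A and male lacrimal C. Trpc4ap passed the F test (0.00287), with 1.81 to 1.98 in meibomian pools and 1.90 to 5.91 elsewhere.

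Other ion transport genes of fluid secretion stand beside these channels, since the channels work with pumps, cotransporters and water channels. Of 34 listed genes, 22 were on the array and 19 were kept. The lacrimal gland had 11 of the 19 lower and 1 higher, where the channel probes had 8 higher and 4 lower. Among those lower were the sodium pump subunit Atp1b1 (-4.20 ± 0.12) and the acinar sodium, potassium and chloride cotransporter Slc12a2 (-3.18 ± 0.13). The submandibular gland had 7 higher and 1 lower, and led with the sodium pump modulator Fxyd2 (3.41 ± 0.21). The meibomian gland had 6 higher and 7 lower, with the water and glycerol channel Aqp3 at 6.59 ± 0.23, and of the 6 higher the calls of Car2 and Clic1 ended with the array set as a covariate (adjusted p = 0.111 and 0.174). The sublingual gland had 4 higher and 1 lower, and the parotid gland 3 higher and 1 lower. Of all probes, 12.3%, 11.2%, 17.1%, 20.2% and 37.9% were called in the submandibular, sublingual, parotid, lacrimal and meibomian glands, in either direction.

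Channel probes were called for sex in 2 glands. In the submandibular gland 4 of the 61 probes were higher in males and none lower, against 2.61% of all 8191 probes called in either direction, 1.94% higher and 0.671% lower. In the lacrimal gland 1 was higher and 1 lower, against 5.43% of all probes, 2.91% higher and 2.53% lower. No probe was called in the sublingual, parotid or meibomian gland by limma, where 2, 2 and 0 had an unadjusted p under 0.05 and 0.208%, 0.0244% and 0.0366% of all probes were called (in the sublingual gland 0.0855% higher and 0.122% lower). Over the mean of the 5 glands 1 was called, Kcnk7, against 1.28% of all probes (0.891% higher and 0.391% lower). The same probe was the only one whose sex difference was unequal between glands in the F test, against 2.66%.

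Kcnk7, a two-pore family member that has not been shown to carry current on its own, read 11.3, 9.21 and 8.66 in male submandibular pools and 0.980, 0.912 and 1.05 in female submandibular pools. The groups did not overlap and lay 9.86-fold apart (3.30 ± 0.27, adjusted p = 3.5e-06). Male sublingual pools read 2.53 and 1.15, against 0.810 and 0.747 in female ones (1.13 ± 0.33, adjusted p = 0.529). Parotid pools read 0.933 and 1 in males, against 1.11 and 0.801 in females. Lacrimal pools read 0.850 and 0.625 in males, against 0.927 and 0.658 in females, and meibomian pools 2.56 and 2.61 in males, against 2.56 and 2.36 in females. The probe gave no value on the 4 arrays of set 3, and setting missing spots to the floor left the submandibular difference at 3.30 but ended its call (adjusted p = 0.655). Within set 1 and within set 2 the submandibular difference was 3.43 and 3.05.

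Kcnj16 (Kir5.1), which forms pH-sensitive rectifiers in kidney tubules with other Kir subunits, was also higher in males. It read 3.56, 5.14 and 3.79 in male submandibular pools and 1.29, 1.52 and 0.838 in female submandibular pools, without overlap (1.80 ± 0.35, 3.48-fold, adjusted p = 0.00373). It was also at least 3.68-fold higher in the submandibular gland than in the mean of the other glands with both sexes weighted equally (2.06 ± 0.20, adjusted p = 1e-07), and lower in the lacrimal gland (-1.83 ± 0.20), where it read 0.159 to 0.464. The sodium bicarbonate cotransporter Slc4a4 was higher there as well, with 7.01 to 14.7 in male and 0.350 to 0.720 in female submandibular pools (4.39 ± 0.48, adjusted p = 8.9e-06). Slc12a2 was lower in males there (-0.96 ± 0.22, adjusted p = 0.016).

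The other 2 probes were those of auxiliary subunits. Kcnmb1, the beta subunit of the BK channel in smooth muscle, read 0.862, 0.763 and 0.867 in male submandibular pools and 0.227, 0.399 and 0.286 in female submandibular pools (1.49 ± 0.33, 2.80-fold, adjusted p = 0.0141). Kcne4, a subunit that dampens several voltage-gated potassium channels, read 0.896, 0.728 and 0.346 in male submandibular pools and 0.189, 0.152 and 0.132 in female submandibular pools, at least 1.81-fold (1.97 ± 0.51, adjusted p = 0.0412). Neither pair of groups overlapped. Of 5 smooth muscle and myoepithelial markers 4 were also higher in male submandibular pools, and their sums were 117 to 231 in males against 39.6 to 66.7 in females. Of 19 skeletal muscle markers 7 were higher, with sums of 28.7 to 39.4 in males and 9 to 12.7 in females. Their part in the Kcnmb1 and Kcne4 differences was not tested.

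Neither of these 2 calls was firm. Kcne4 had an adjusted p of 0.118 on the 16 arrays alone. It also lost its call without 15 of the single arrays, with adjusted p of 0.0502 to 0.224. These were female submandibular A, B and C, male submandibular A and B, all 6 meibomian pools, male sublingual A, both male parotid pools and female lacrimal A. Kcnmb1 lost it without female submandibular A (0.1) or C (0.0509) and without male submandibular A (0.0617) or C (0.0522).

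**Figure D3:**
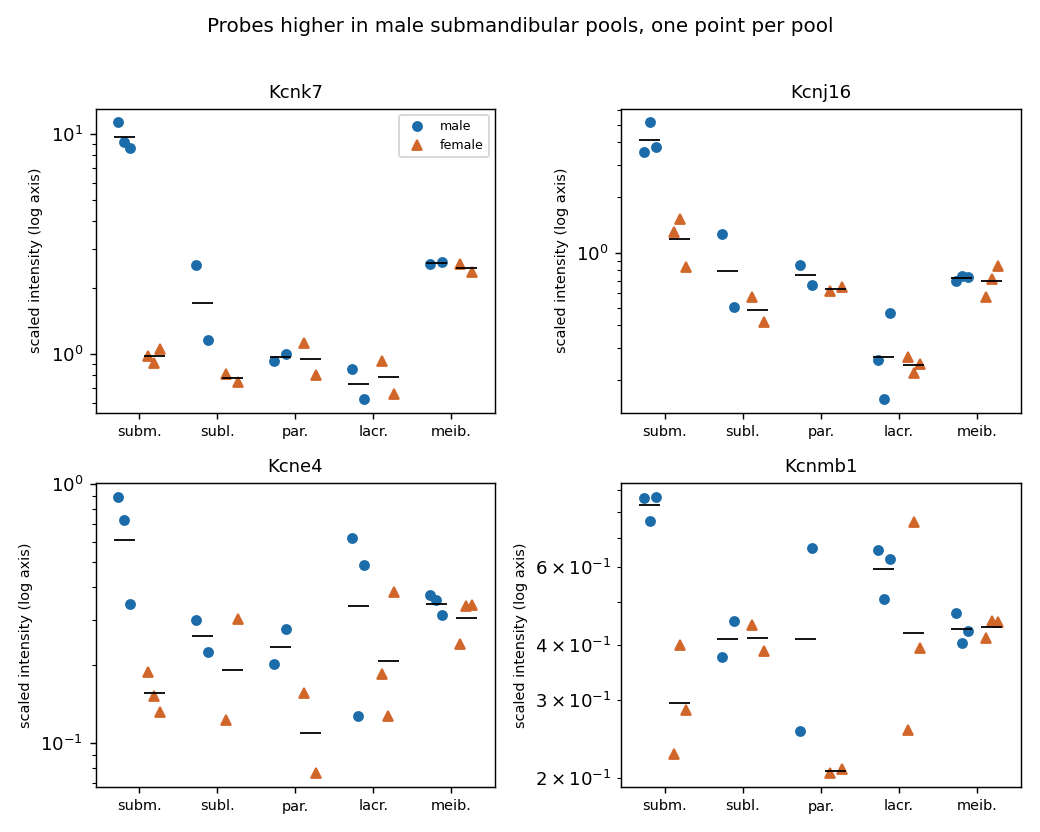
Scaled intensity (log axis) of the 4 probes called higher in male submandibular pools, in each gland, 1 point per pool, circles for male and triangles for female pools, with the geometric mean of each group as a bar. Male and female submandibular points do not overlap in any of the panels, and Kcnk7 shows the widest gap.

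The stretch around the transcription start of 3 of these 4 genes is shown because they were the channel genes higher together in male submandibular pools and have a single start in RefSeq (build GRCm38.p6). Promoter windows of 250 bases before to 50 after a start were found for 73 of the 90 genes. Capitals mark the motif CAGCTG, an E-box. Also searched, on both strands, were AGAACA (reverse TGTTCT), the half-site bound by the androgen and glucocorticoid receptors, and TATAAA (reverse TTTATA).
Kcnk7: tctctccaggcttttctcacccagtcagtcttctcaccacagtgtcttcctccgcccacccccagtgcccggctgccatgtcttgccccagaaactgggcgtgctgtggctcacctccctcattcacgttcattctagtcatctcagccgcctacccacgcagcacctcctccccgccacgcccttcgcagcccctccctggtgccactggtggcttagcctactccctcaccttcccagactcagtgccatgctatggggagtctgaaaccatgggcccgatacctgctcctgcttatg
Kcne4: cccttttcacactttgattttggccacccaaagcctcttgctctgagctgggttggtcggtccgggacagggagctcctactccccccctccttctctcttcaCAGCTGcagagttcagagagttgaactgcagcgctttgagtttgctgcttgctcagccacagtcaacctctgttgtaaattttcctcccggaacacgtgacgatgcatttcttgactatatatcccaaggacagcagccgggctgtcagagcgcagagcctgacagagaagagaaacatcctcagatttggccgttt
Kcnmb1: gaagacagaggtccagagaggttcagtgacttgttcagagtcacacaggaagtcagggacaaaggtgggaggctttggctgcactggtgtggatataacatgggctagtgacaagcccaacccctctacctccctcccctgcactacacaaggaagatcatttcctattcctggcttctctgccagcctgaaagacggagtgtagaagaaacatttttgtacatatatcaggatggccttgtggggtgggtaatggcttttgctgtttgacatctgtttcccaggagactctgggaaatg
The Kcnk7 window lies at chr19:5704221-5704520, the Kcne4 window at chr1:78816661-78816960 and the Kcnmb1 window at chr11:33962763-33963062, all on the plus strand. The half-site motif was not found in any of the 3, nor in the 4 windows of Kcnj16, whereas 19.0% of the 32851 windows in the table held it. CAGCTG was found once in the Kcne4 window and once each in 2 of the Kcnj16 windows, and 16.3% of all windows held it. TATAAA was found in 1 Kcnj16 window, and 13.6% of all windows held it. A match or its absence describes these windows only.

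In the lacrimal gland, Kcnip3 read 3.47, 2.07 and 5.20 in male pools and 0.685, 0.805 and 1.38 in female pools, without overlap (1.87 ± 0.44, 3.66-fold, adjusted p = 0.0122). Kcnj8 read 1.96, 1.32 and 1.73 in male pools and 5.62, 4 and 3.30 in female pools, also without overlap (-1.35 ± 0.38, 2.55-fold lower in males, adjusted p = 0.0421). Both had the same sign in array sets 1, 2 and 3, each of which holds 1 lacrimal pool per sex. The Kcnip3 call ended without female lacrimal A (adjusted p = 0.0683) or B (0.0525) or male lacrimal C (0.0646). The Kcnj8 call ended without 13 of the single arrays, with adjusted p of 0.0504 to 0.176: female lacrimal A and B, the 3 male lacrimal pools, all 4 parotid pools, male sublingual A, male meibomian B and C and female meibomian B.

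Male and female pools of the same letter deviated together, and a fit with that pairing as a block, which lowers the residual spread, changed several sex calls. The share of all probes that this blocked fit called was not computed, so its counts are not read as particular to the channels. In the lacrimal gland the blocked fit called 9 probes. Beside Kcnip3 (adjusted p = 0.0013) and Kcnj8 (0.000278), these were Cacna1a, Clcn7, Kcnj3, Scn11a and both Kcnma1 probes, lower in males, and Kcnh3, higher in males. The first Kcnma1 probe read 3.98, 2.87 and 2.97 in male and 4.21, 10.9 and 5.35 in female lacrimal pools. Its unblocked difference was -0.96 ± 0.36 (adjusted p = 0.163), and the blocked fit gave an adjusted p of 0.0381. In the submandibular gland the block added Kcnh1, lower in males (blocked adjusted p = 0.0288). The unblocked fit gave -0.64 ± 0.48 for it (adjusted p = 0.803), and these standard errors belong to the unblocked fit. Over the mean of the 5 glands it added Kcne4 (0.0277), Kcnj16 (0.0226) and Kcnj8 (0.00627). It also called the sex difference unequal between glands for Kcnj8 (0.0084), Kcnip3 (0.0113), Kcnh1 (0.037) and Kcnj16 (0.0447) beside Kcnk7.

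**Figure D4:**
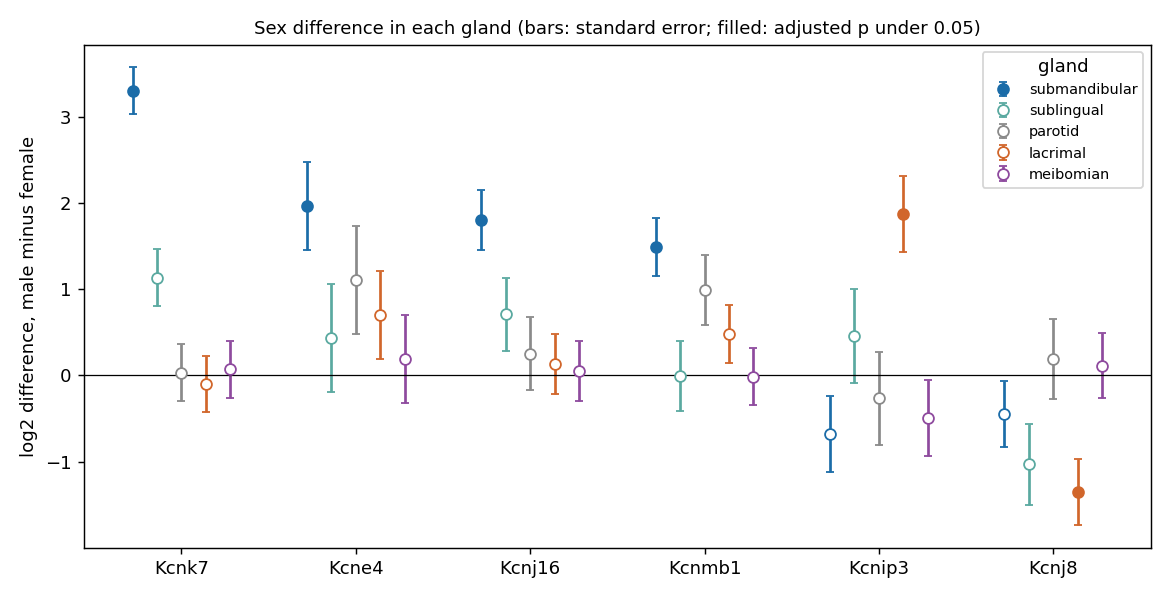
Log2 difference, male minus female, of the 6 probes called for sex in any gland, for each gland in colour, with the standard error of the fit as bars. Filled points had an adjusted p under 0.05: the submandibular points of Kcnk7, Kcne4, Kcnj16 and Kcnmb1 above 0, and the lacrimal points of Kcnip3 above 0 and Kcnj8 below 0.

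Several potassium channel probes followed the division of the arrays more than the glands. Kcnc1, of fast-firing neurons, read 0.389 to 2.24 on the 10 arrays and 4.96 to 24.8 on the 16. It was lower on the 10 arrays in all 10 groups, by 13-fold on average within groups. Kcna2 read 0.761 to 3.88 on the 10 arrays and 4.32 to 26.8 on the 16, a 6.24-fold mean difference in the same direction in all 10 groups. Kcna5, of heart and vascular muscle, was 6.81-fold lower on the 10 arrays, in all 10 groups, and was not kept although it was dim in no group. Among the probes kept, Kcnc1 and Kcna2 were the 2 members that lay more than 2 log2 units lower on the 10 arrays, 3.28% of the 61 kept, where 0.96% of all probes did.

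Kcnn4 was 3.92-fold lower on the 10 arrays within groups, in 10 of 10, and Kcnk2 was 3.19-fold lower in all 6 groups that could be compared. The second Kcnma1 probe ran the other way, 3.30-fold higher on the 10 arrays and lower in none of the 10 groups. On the 16 arrays alone, Kcnn4 and both Kcnma1 probes were called lower in the meibomian gland, as they were over all arrays. With the array set as a covariate Kcna2 and Kcnc1 were called for the lacrimal gland, which they were not otherwise.

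**Figure D5:**
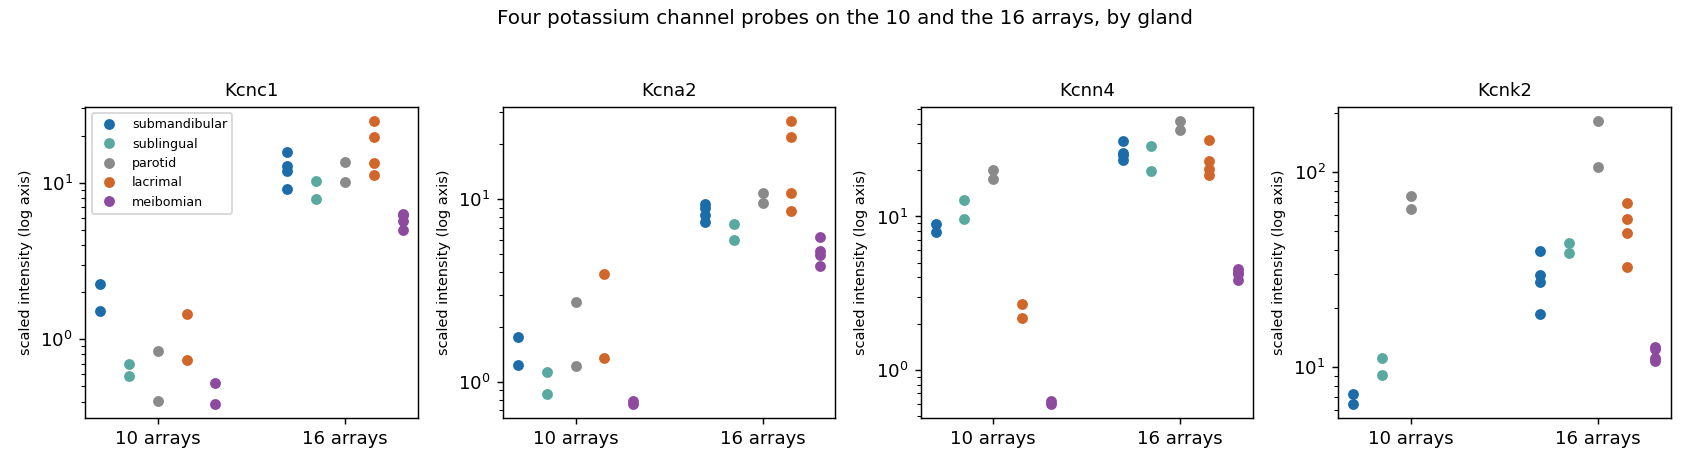
Scaled intensity (log axis) of Kcnc1, Kcna2, Kcnn4 and Kcnk2 on the 10 arrays (left) that the first principal component separates from the other 16 (right), coloured by gland, 1 point per array. For Kcnc1 and Kcna2 every point on the 10 arrays lies below every point on the 16, whatever the gland.

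The 32 probes that were not kept were Cacna1c, Cacna1g, Cacna1h, Cacna2d1, Cacna2d3, Cacnb1, Cacnb2, Cacng1, Cacng2, Cacng3, Clcn5, Kcna4, Kcna5, Kcnab1, Kcnab2, Kcnd1, Kcnd2, Kcnip4, Kcnj1, Kcnj12, Kcnj2, Kcnj4, Kcnj5, both Kcnj9 probes, Kcnmb4, Kcnn2, Kcnq5, Kcnu1, Scn8a, Trpc4 and Trpc6. They include 7 of the 8 auxiliary calcium channel subunits. All but Kcna5 were dim in 5 or more of the 10 groups, and their gland differences are not given here. The first Kcnj9 (GIRK3) probe was highest in a male lacrimal pool, at 0.619, and the second in a male submandibular pool, at 1.05.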

How the data were processed

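The deposited table gave 1 intensity per probe and array, a linear value that from its numbers had been background-subtracted and scaled within arrays by the authors, since small negative values occur and array medians are nearly equal. The array platform, scanner and software are not given in the sources used here. Values of exactly -1 (2241, or 0.821%) were taken as missing spots. Gene names came from the platform annotation, in which 8983 probes had 1 symbol, 1 had several and 1516 had none.

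Before the log2 step, intensities under 0.0234 (the 1st percentile of those above 0) were set to that floor. The 8191 probes kept were fitted with limma 3.58.1 in R 4.3.3, with 1 mean per group of sex and gland over all 26 arrays (16 residual and 4.15 prior degrees of freedom). Adjusted p-values are Benjamini-Hochberg values over all probes tested, and limma's moderated tests gave every p. Each gland was set against the unweighted mean of the other 4, both sexes weighted equally. The fit's code was tested on simulated data. Array precision is limited by the number of arrays.

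Male and female pools of one letter were checked for pairing. In the glands with 3 pools, all 9 same-letter pairs deviated together (correlations 0.319 to 0.657), and each pool correlated best with its own letter. A fit with the letter as a block is therefore given for the sex calls that it changed. The gland comparisons took these pools as independent. With the letter as a random block (correlation 0.562), 45 of the 50 F test calls were kept. The submandibular, sublingual, parotid, lacrimal and meibomian calls then numbered 16, 6, 14, 10 and 28. Alternatives were quantile normalization, other filters and floors, a pseudocount of 0.5, missing spots at the floor, array weights, array sets and left-out arrays.

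The members and gene lists were chosen with earlier results of these data known. Named probes were, for each gland, the up to 5 highest and 3 lowest of those called without overlap (of all called, where fewer than 2 had none), every probe called for sex, the 5 brightest, the brightest of each role and both probes of a gene (brightness only picked names). This gave 37, and any other probe named was chosen after its values were seen. Promoter windows are RefSeq's.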

Additional observations from a re-analysis of the deposited data

Results flagged for a closer look

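Kcnk7 is listed because its sex difference was unequal between glands, by limma's F test of the interaction of sex and gland (adjusted p = 0.000302). The log2 difference, male minus female, was 3.30 in the submandibular and 1.13 in the sublingual gland, and 0.03, -0.10 and 0.07 in the parotid, lacrimal and meibomian glands. With the pool letter as a block the adjusted p was 0.000754. The meibomian and lacrimal values rest on 2 pools per sex each, since the probe gave no value on the arrays of set 3.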

How the results depend on the processing

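Counts of channel probes called moved by more than 1.5 times under these settings, and the cause was not tested. With the stricter filter, under which fewer probes are tested, the submandibular, parotid and meibomian calls numbered 10, 9 and 14, the sex calls in the submandibular gland 2 and the F test over glands 27. With a pseudocount the submandibular, sublingual, parotid, lacrimal and meibomian calls were 6, 4, 5, 2 and 10, those of sex over the mean of the glands 2, and those of the interaction 3. Without a filter the lacrimal gland had 28 calls and 1 for sex, and quantile normalization left 19 meibomian calls. With missing spots at the floor the sex calls were 2 in the submandibular gland, 1 in the lacrimal gland, 0 over the mean and 0 for the interaction. Array weights gave 0 for sex in the lacrimal gland, 2 over the mean and 3 for the interaction. The replicate block gave 9 for sex in the lacrimal gland, 4 over the mean and 5 for the interaction, and changed no other count by that much. The array set as a covariate gave 3 over the mean and 2 for the interaction.

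In set 1 alone, which has fewer arrays, the counts were 10 in the submandibular gland, 1 and 0 for sex in the submandibular and lacrimal glands, 0 over the mean and 32 for the F test. Set 2 alone gave 6, 3 and 4 calls in the submandibular, sublingual and lacrimal glands, 0 over the mean and 17 for the F test. Set 3 alone gave 11 meibomian calls and 0 over the mean. Set 4 holds only the meibomian gland and gives no gland comparison. Chosen after seeing the data were the random block, the array division as a covariate, and the 10 arrays alone (6 lacrimal calls, 0 over the mean) and the 16 alone (2 over the mean).

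Leaving out each array in turn gave 15 to 17 submandibular, 6 to 9 sublingual, 14 to 15 parotid, 9 to 15 lacrimal and 28 to 31 meibomian calls and 46 to 51 for the F test. For sex it gave 2 to 4, 0 to 1, 0 to 0, 0 to 2 and 0 to 0 in the same order of glands, 1 to 3 over the mean and 1 to 2 for the interaction. Of the named differences, 4 changed sign. Kcne1 in the meibomian gland was 0.17 in set 3 alone, Kcnk1 in the submandibular gland -0.036 and the second Kcnma1 probe in the lacrimal gland -0.99 in set 1 alone, and Trpc1 in the parotid gland -0.59 with missing spots at the floor. Of 67 called differences of named probes, 12 lost neither direction nor call in any setting that tested them. Not every setting tested each difference, since filters dropped some probes and single array sets lack some glands.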
